A study of Homo sapiens with 8 samples.

Results

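The hexosamine pathway and the O-GlcNAc enzymes were followed here across 8 whole-transcript arrays of 2 human lymphoma cell lines. The set was chosen by gene symbol and holds 10 genes, of which 8 had a probe set of their own (GFPT1, GNPNAT1, UAP1, NAGK, GNPDA1, GNPDA2, OGT and OGA), against 17958 genes measured in all. GFPT2 and PGM3 were not analysed here. KMH2 is a line from Hodgkin lymphoma and Ramos is a line from Burkitt lymphoma, both grown in RPMI medium with GlutaMAX, heat-inactivated serum and antibiotics. The 3 groups were KMH2 glucosamine (3 arrays, cells given glucosamine for 24 h, at a dose not given in the sources used here), Ramos (2 arrays) and KMH2 control (3 arrays, without glucosamine). The labels call both Ramos arrays control, whereas the series' design text puts 1 of the pair after glucosamine, so Ramos was used as a cell line with no treatment assigned to either array. KMH2 replicates are described as biological, and for Ramos nothing says whether the arrays came from separate cultures, so its spread may be technical. Each line is a single tumour-derived model.

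The hexosamine pathway turns fructose 6-phosphate, glutamine, acetyl-CoA and uridine triphosphate into UDP-GlcNAc, the sugar donor for N-glycans, hyaluronan and the single O-GlcNAc residues set on nuclear and cytosolic proteins. GFPT1 and its relative GFPT2 catalyse the first and rate-limiting step, GNPNAT1 acetylates glucosamine 6-phosphate, PGM3 moves the phosphate, and UAP1 attaches uridine diphosphate. Added glucosamine is phosphorylated by hexokinase and joins the pathway after the GFPT step, NAGK recovers N-acetylglucosamine from degraded glycans, and GNPDA1 and GNPDA2 return glucosamine 6-phosphate to glycolysis. OGT attaches O-GlcNAc and OGA removes it, and in many cells the level of each responds to the amount of O-GlcNAc.

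The stretches before the start sites of 4 genes are printed because these genes showed the largest called differences of the set after glucosamine, GFPT1, GNPDA2 and OGA higher and NAGK lower. GFPT1 has been described as a target of XBP1, which switches on genes of the unfolded protein response. The sequences are from RefSeq on GRCh38.p14, 250 bases each, 5′ to 3′ on the strand of the gene and ending at the base before the start site. Capitals mark CCACG, a stretch of the endoplasmic reticulum stress element, and ACGTG, the core of XBP1 sites, on either strand and merged where they overlap. The stretches are chr2:69387228-69387477 (minus strand) for GFPT1, chr4:44726557-44726806 (minus strand) for GNPDA2, chr10:101818445-101818694 (minus strand) for OGA and chr2:71068046-71068295 (plus strand) for the first of the NAGK start sites.
GFPT1: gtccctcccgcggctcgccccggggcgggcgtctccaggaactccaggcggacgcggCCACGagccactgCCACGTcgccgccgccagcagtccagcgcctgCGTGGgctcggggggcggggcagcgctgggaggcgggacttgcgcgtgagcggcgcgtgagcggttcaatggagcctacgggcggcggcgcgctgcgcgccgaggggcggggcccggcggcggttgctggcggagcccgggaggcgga
GNPDA2: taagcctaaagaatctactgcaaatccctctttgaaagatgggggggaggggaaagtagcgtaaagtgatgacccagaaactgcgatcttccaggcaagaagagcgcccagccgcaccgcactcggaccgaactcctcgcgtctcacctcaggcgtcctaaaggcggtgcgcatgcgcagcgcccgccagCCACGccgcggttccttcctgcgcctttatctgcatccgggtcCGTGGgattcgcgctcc
OGA: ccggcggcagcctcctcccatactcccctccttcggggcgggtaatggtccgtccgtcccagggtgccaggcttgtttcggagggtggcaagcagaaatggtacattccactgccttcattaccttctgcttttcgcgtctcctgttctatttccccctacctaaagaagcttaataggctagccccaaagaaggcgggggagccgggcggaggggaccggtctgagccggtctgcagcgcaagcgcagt
NAGK: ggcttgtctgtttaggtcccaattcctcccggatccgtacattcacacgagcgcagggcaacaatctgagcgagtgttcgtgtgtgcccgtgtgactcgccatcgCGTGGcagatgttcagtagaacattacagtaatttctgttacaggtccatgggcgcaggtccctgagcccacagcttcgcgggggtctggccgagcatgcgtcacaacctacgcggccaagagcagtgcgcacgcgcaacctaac

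GFPT1 held 3 matches to CCACG, 193, 180 and 148 bases upstream, the middle of which overlapped its match to ACGTG. GNPDA2 held 2 matches to CCACG, 60 and 17 bases upstream, NAGK held 1, 145 bases upstream, and OGA held neither motif. The stretch before the other NAGK start site, not printed, also held neither. G and C made up 80% of the GFPT1 stretch, 60.4% of GNPDA2, 60.8% of OGA and 58% of NAGK. Over the stretches before all start sites of the set the share ran from 58% (NAGK) to 80.8% (GNPNAT1). All 10 genes of the set were matched by symbol, with 14 windows of 300 bases that run from 250 bases before to 50 after a start site. CCACG lay in 10 of the 14 windows (9 genes) and in 38.1% of all 35116 promoter windows, whose G and C content was 57.5%. ACGTG lay in 7 of the 14 (5 genes) and in 21.4% of all windows. The windows of UAP1 overlap, so the same site was counted 20 bases downstream of 1 start site and 172 bases upstream of another. CCACG and ACGTG are rich in G and C, and the part of base content in these shares was not tested. CACGTG, the E-box, which contains ACGTG on both strands, lay in 1 of the 14 (GNPDA1) and in 7.26% of all. TGATGNAA, the core of the amino acid response element, lay in 0 of the 14 and in 3.62% of all windows. Both strands were searched for each motif. A match describes the letters of the window and says nothing of binding in these cells.

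Signals are log2 values per probe set as the authors deposited them, and each difference is KMH2 glucosamine minus KMH2 control, or Ramos minus KMH2 control. The arrays had medians between 5.62 and 5.68. The SD between replicates of a typical probe set (the median) was 0.080 in KMH2 glucosamine, 0.113 in Ramos and 0.067 in KMH2 control. Of the B-cell markers 5 of 6 were measured. Their group means were 3.80 to 7.09 in KMH2 glucosamine, 10.19 to 11.79 in Ramos and 3.70 to 7.46 in KMH2 control. All 5 were higher in Ramos than in KMH2 control, against 22.7% of all probe sets. After glucosamine 1 of the 5 fell (13.9% of all probe sets did), PAX5, a B-cell transcription factor, by 0.37 (limma adjusted p = 0.0105). All 6 Hodgkin tumour-cell markers were measured. Their summed level was 11.5 to 11.6 in KMH2 glucosamine, 8.91 to 8.99 in Ramos and 11.9 to 12.0 in KMH2 control (log2 of the sum). After glucosamine 5 of the 6 fell, against 13.9% of all probe sets, among them TNFRSF8, the gene of CD30, by 0.73. In Ramos 5 of the 6 were lower than in KMH2 control, against 21.2% of all probe sets. Of T and NK cell markers (6 of 6 measured) and fibroblast and epithelial markers (5 of 5) 0 and 0 passed the test after glucosamine by limma (2 and 1 fell at an unadjusted p under 0.05). With a replicate block 1 of them passed, the T-cell receptor subunit gene CD3G (-0.60, adjusted p = 0.000633, against 0.0978 without the block). Of 4 measured myeloid markers of 5, CSF1R rose and CD14 fell. In Ramos 2 of the T and NK markers were lower than in KMH2 control, CD3D (-2.50) and CD3G (-2.67). Of the fibroblast and epithelial markers 1 was lower there, and of the myeloid markers 2 were higher and 2 lower. The summed levels of the T and NK, fibroblast and epithelial, and myeloid markers were 9.11 to 9.30, 7.26 to 7.37 and 8.65 to 8.75 in KMH2 glucosamine, 7.97 to 8.02, 7.28 to 7.31 and 8.11 to 8.30 in Ramos, and 9.36 to 9.52, 7.35 to 7.54 and 8.64 to 8.82 in KMH2 control. Without detection calls no marker can be said to be at 0. In bulk RNA, fewer cells of a type and less RNA per cell cannot be told apart, and the part of the marker shifts in the results below was not tested.

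After 24 h of glucosamine most of the measured genes of the set shifted by small amounts. The shift was upwards in the measured synthesis genes, in GNPDA2 of the reverse reaction and in OGA, and downwards in NAGK of the salvage route. Of 8 genes 6 passed the test, against 25.8% of all probe sets tested. All 8 lay in the brighter part of the probe sets, at signal percentiles of 60.7 to 97. In a fit without dim probe sets (mean signal under the median), 4772 of 9591 were called, and again 6 of the 8 genes. The 5 that rose were OGA, GFPT1, GNPDA2, GNPNAT1 and UAP1 (11.9% of all probe sets rose), and the 1 that fell was NAGK (13.9% fell). OGT and GNPDA1 did not pass. In 6 of the 8 genes the glucosamine and control arrays did not overlap, as in 40.9% of all probe sets. The median difference over the 8 genes was 0.22, against 0.01 over all genes, and the median size of the difference was 0.27, against 0.11 over all genes. No gene of the set changed by more than 1.35-fold. Adjusted p-values in all sentences below are from limma, two-sided, with Benjamini-Hochberg adjustment over 19181 probe sets and a threshold of 0.05. The count of 6 became 3 without control replicate 1, without control replicate 2 or without glucosamine replicate 3, and 1 (NAGK) in a fit of all 8 arrays with a common spread.

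**Figure D1:**
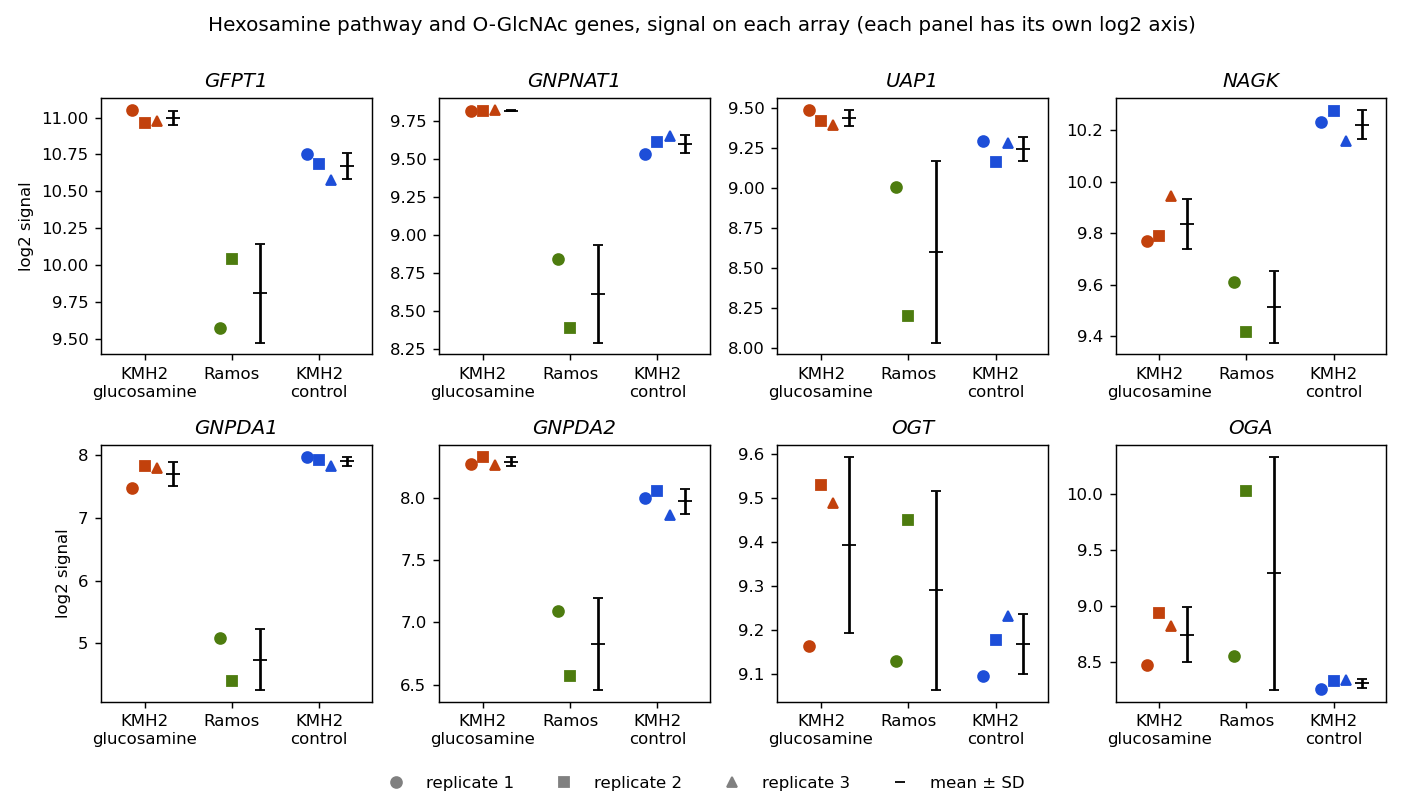
Log2 signal (y axis, a scale of its own for each panel) of the 8 measured genes on each array of KMH2 glucosamine, Ramos and KMH2 control, where marker shapes stand for replicate numbers and black marks for the mean ± SD. The glucosamine arrays lie apart from the control arrays in 6 genes, and Ramos lies farthest below both KMH2 groups in GNPDA1.

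GFPT1 (probe set 8052762), the gene of the rate-limiting enzyme, had signals of 11.05, 10.96 and 10.98 in KMH2 glucosamine, against 10.76, 10.68 and 10.58 in KMH2 control. Every treated array was above every control array. The means were 11.00 ± 0.05 in glucosamine and 10.67 ± 0.09 in control (SD, n = 3 each). The difference of 0.33 ± 0.06 (SE, 95% confidence interval 0.18 to 0.47) is 1.25-fold, with adjusted p = 0.00614, and it was positive in each pair of the same replicate number (0.30, 0.28 and 0.40).

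Of the later synthesis steps, GNPNAT1 (probe set 7979196), the acetyltransferase, had signals of 9.82, 9.82 and 9.83 in KMH2 glucosamine and 9.54, 9.61 and 9.65 in KMH2 control. The groups did not overlap, and the treated arrays were nearly level with each other. GNPNAT1 rose by 0.22 ± 0.05 (SE, 95% confidence interval 0.10 to 0.34), 1.17-fold, with adjusted p = 0.0163. GNPNAT1 no longer passed when control replicate 1 (adjusted p = 0.0560), control replicate 2 (0.0523) or glucosamine replicate 3 (0.0587) was left out. The 16 alternatives gave 0.00541 to 0.248. UAP1 (probe set 7906863), which makes UDP-GlcNAc, had signals of 9.49, 9.42 and 9.39 in KMH2 glucosamine and 9.29, 9.16 and 9.28 in KMH2 control. Here too all treated arrays were above all control arrays, by a narrower margin. UAP1 rose by 0.19 ± 0.06 (SE, 95% confidence interval 0.05 to 0.33), 1.14-fold, with adjusted p = 0.0475. That call was lost when any 1 array was left out. Adjusted p was then 0.0652, 0.165 and 0.0852 without control replicates 1, 2 and 3, and 0.0932, 0.0935 and 0.0815 without glucosamine replicates 1, 2 and 3. It ran from 0.0253 to 0.564 across 16 alternatives.

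NAGK (probe set 8042576), the kinase of the salvage route, was the gene of the set that fell. Its signals were 9.77, 9.79 and 9.95 in KMH2 glucosamine, against 10.23, 10.27 and 10.16 in KMH2 control. The groups did not overlap, and glucosamine replicate 3 came closest to the control arrays. NAGK averaged 9.83 ± 0.10 in glucosamine and 10.22 ± 0.06 in control (SD, n = 3 each), a difference of -0.39 ± 0.07 (SE, 95% confidence interval -0.54 to -0.24). The signal was 1.31-fold lower, with adjusted p = 0.00345, and the call held in all 16 alternatives (0.000721 to 0.0200).

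The genes of the reverse reaction, paralogues that both return glucosamine 6-phosphate to fructose 6-phosphate, gave different outcomes. GNPDA2 (probe set 8100085) had signals of 8.27, 8.33 and 8.27 in KMH2 glucosamine and 8.00, 8.06 and 7.86 in KMH2 control. The groups did not overlap, and GNPDA2 rose by 0.32 ± 0.06 (SE, 95% confidence interval 0.17 to 0.46), 1.24-fold, with adjusted p = 0.00765. GNPDA1 (probe set 8114787) had signals of 7.48, 7.83 and 7.79 in KMH2 glucosamine and 7.97, 7.92 and 7.83 in KMH2 control. Its groups overlapped, and most of the difference lay in glucosamine replicate 1. The difference was -0.21 ± 0.10 (SE, 95% confidence interval -0.43 to 0.02) and did not pass (adjusted p = 0.170). Without glucosamine replicate 1 it was -0.09, with adjusted p = 0.327. Within each array GNPDA2 minus GNPDA1 was 0.80, 0.50 and 0.47 in glucosamine and 0.04, 0.13 and 0.04 in control. The groups did not overlap in this contrast, which was not tested.

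OGA and OGT, the enzymes of O-GlcNAc cycling, both had higher means after glucosamine, with the widest spread between treated replicates in the set. OGA (probe set 7935910) had signals of 8.47, 8.94 and 8.82 in KMH2 glucosamine, against 8.26, 8.33 and 8.33 in KMH2 control. All treated arrays lay above the control arrays, glucosamine replicate 1 by the least. The difference of 0.44 ± 0.11 (SE, 95% confidence interval 0.18 to 0.69) is 1.35-fold, with adjusted p = 0.0212. It was 0.21, 0.61 and 0.49 in the pairs of replicates 1, 2 and 3. OGA no longer passed when control replicate 1 (adjusted p = 0.0666), 2 (0.0624) or 3 (0.0604), or glucosamine replicate 2 (0.0599) or 3 (0.0768), was left out. The 16 alternatives gave 0.000483 to 0.453.

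OGT (probe set 8168316) had signals of 9.16, 9.53 and 9.49 in KMH2 glucosamine and 9.09, 9.18 and 9.23 in KMH2 control. Glucosamine replicate 1 lay among the control arrays, and the other 2 treated arrays lay above them. The OGT difference of 0.23 ± 0.10 (SE, 95% confidence interval -0.000298 to 0.45) did not pass (adjusted p = 0.139). It passed with a replicate block (0.0410), with array weights (0.00982) and without both replicate 1 arrays (0.00713). Without glucosamine replicate 1 the difference was 0.34 (0.00490). The 16 alternatives gave 0.00490 to 0.338. Within each array OGA minus OGT was -0.69, -0.59 and -0.66 in glucosamine and -0.84, -0.85 and -0.90 in control. The groups did not overlap in this contrast either, and it was not tested.

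**Figure D2:**
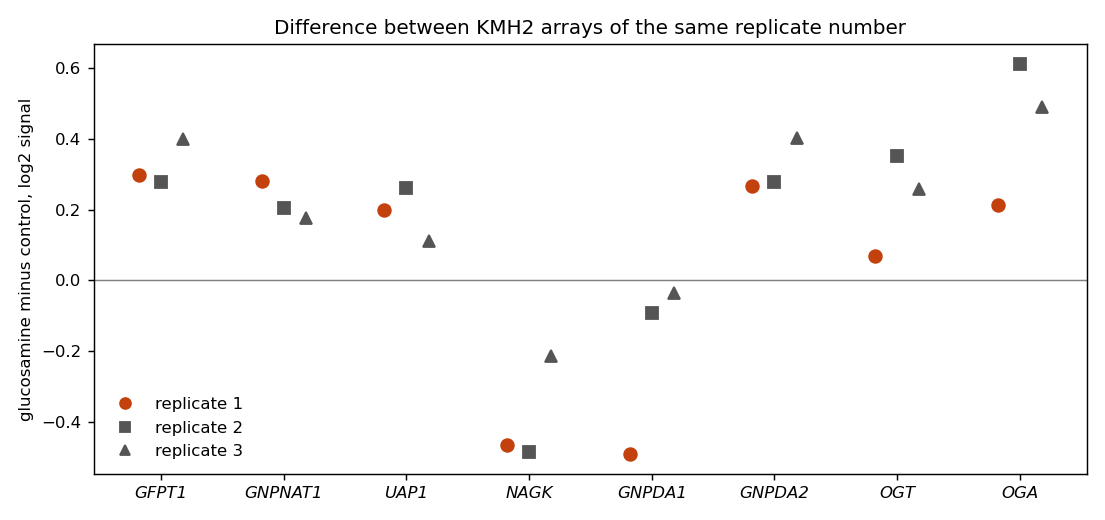
Difference in log2 signal (y axis), KMH2 glucosamine minus KMH2 control, within each pair of the same replicate number for the 8 measured genes, where marker shapes stand for replicate numbers. Every pair is above 0 in 6 genes and below 0 in NAGK and GNPDA1, and the OGA pairs spread from 0.21 to 0.61.

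**Figure D3:**
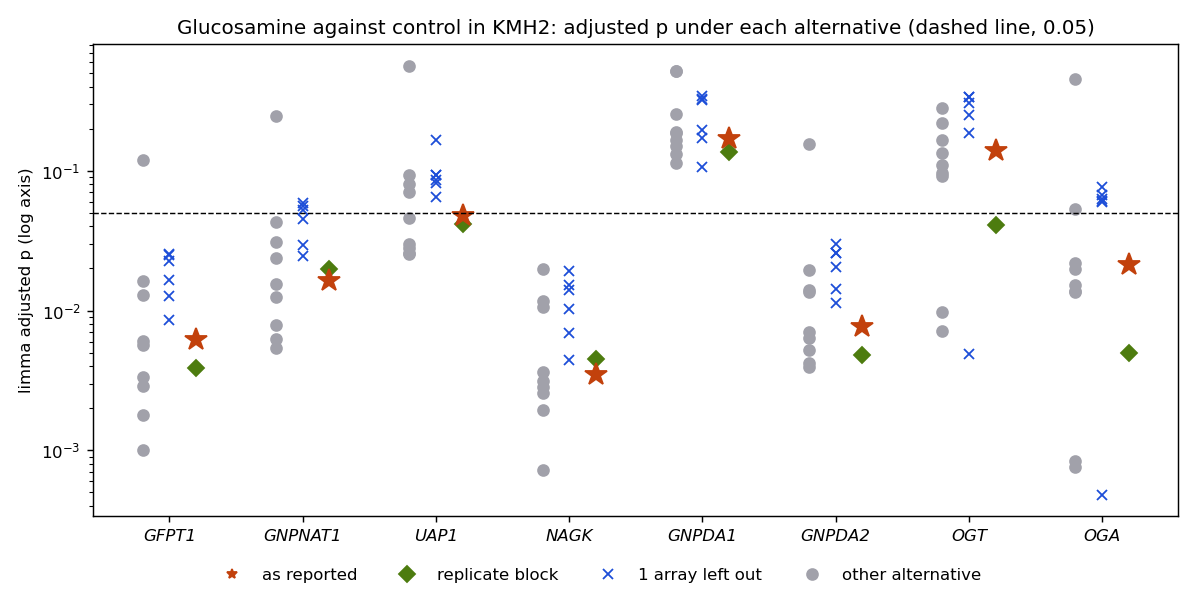
Limma adjusted p (y axis, log scale) of the 8 measured genes for KMH2 glucosamine against KMH2 control, as reported (stars), with a replicate block (diamonds), with 1 array left out (crosses) and under the other alternatives (circles), with a dashed line at 0.05. NAGK stays below the line in all 16 alternatives, GNPDA1 stays above it, and the other 6 genes have points on both sides.

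In Ramos the measured genes of UDP-GlcNAc synthesis, salvage and the reverse reaction were lower than in KMH2 control, and neither O-GlcNAc cycling gene passed the test. Of 8 genes 6 passed the test, against 43.8% of all probe sets. All 6 were lower (21.2% of all probe sets were lower) and 0 were higher by limma (22.7% were higher). At an unadjusted p under 0.05, 1 gene (OGA) was higher. In 7 of the 8 the Ramos and control arrays did not overlap, as in 64.1% of all probe sets. In the fit without dim probe sets 6136 of 9591 were called, and 7 of the 8 genes, with OGA joining the 6. The median difference over the 8 genes was -0.79, against 0.06 over all genes. This comparison shares the KMH2 control arrays with the glucosamine comparison, so the differences of both contain the same control values.

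The widest difference between the lines was that of GNPDA1, with signals of 5.08 and 4.40 in Ramos, against 7.83 to 7.97 in KMH2 control. The Ramos arrays were far below every KMH2 array. GNPDA1 was lower by 3.16 ± 0.19 (-3.16, SE, 95% confidence interval -3.60 to -2.72), 8.96-fold, with adjusted p = 3.16e-06. Signals as low as those in Ramos include background of unknown size, which shrinks a fold. Its paralogue GNPDA2 had signals of 7.09 and 6.57 in Ramos and 7.86 to 8.06 in KMH2 control, a 2.21-fold lower level (-1.15 ± 0.14, SE, adjusted p = 0.000229).

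Among the synthesis genes, GFPT1 had signals of 9.57 and 10.04 in Ramos and 10.58 to 10.76 in KMH2 control, 1.82-fold lower in Ramos (-0.87 ± 0.13, SE, adjusted p = 0.000770). GNPNAT1 had 8.84 and 8.39 in Ramos and 9.54 to 9.65 in KMH2 control, 1.98-fold lower (-0.98 ± 0.12, SE, adjusted p = 0.000238). Neither gene overlapped between the lines. UAP1 had 9.00 and 8.20 in Ramos and 9.16 to 9.29 in KMH2 control, 1.56-fold lower (-0.64 ± 0.20, SE, adjusted p = 0.0285). The size for UAP1 depended on which Ramos array was used, -1.04 without replicate 1 and -0.24 without replicate 2. Its call was lost without KMH2 control replicate 1 (adjusted p = 0.0757), 2 (0.0558) or 3 (0.0772), over a range of 1.23e-05 to 0.0838 across 18 alternatives. NAGK had 9.61 and 9.42 in Ramos and 10.16 to 10.27 in KMH2 control, 1.63-fold lower (-0.71 ± 0.09, SE, adjusted p = 0.000261). NAGK was thus lower than in KMH2 control both in Ramos and in KMH2 after glucosamine.

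The Ramos arrays differed from each other most, within the set, in OGA, with 8.55 on replicate 1 and 10.03 on replicate 2, against 8.26 to 8.33 in KMH2 control. Of all tested probe sets 0.605% were at least as far apart between the Ramos arrays, whose median difference was 0.16 in size. The mean OGA difference was 0.99 ± 0.36 (SE, 95% confidence interval 0.16 to 1.82) and did not pass (adjusted p = 0.0558). It was 1.73 without Ramos replicate 1 and 0.25 without Ramos replicate 2. OGA passed with a replicate block (adjusted p = 0.0333), with array weights (0.0323) and without dim probe sets (0.0416). OGT had 9.13 and 9.45 in Ramos and 9.09 to 9.23 in KMH2 control, with overlapping groups. Its difference was 0.12 ± 0.13 (SE, 95% confidence interval -0.19 to 0.43, adjusted p = 0.497), 0.28 without Ramos replicate 1 and -0.038 without Ramos replicate 2 (0.853), over a range of 0.132 to 0.959 across 18 alternatives. Replicate 2 was higher than replicate 1 in GFPT1, OGT and OGA, and lower in GNPDA1, GNPDA2, GNPNAT1, UAP1 and NAGK. For UAP1 (0.80 apart) 5.3% and for GNPDA1 (0.69 apart) 7.91% of probe sets were at least as far apart. NAGK, 0.20 apart, was the closest, with 42.9% at least as far apart.

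**Figure D4:**
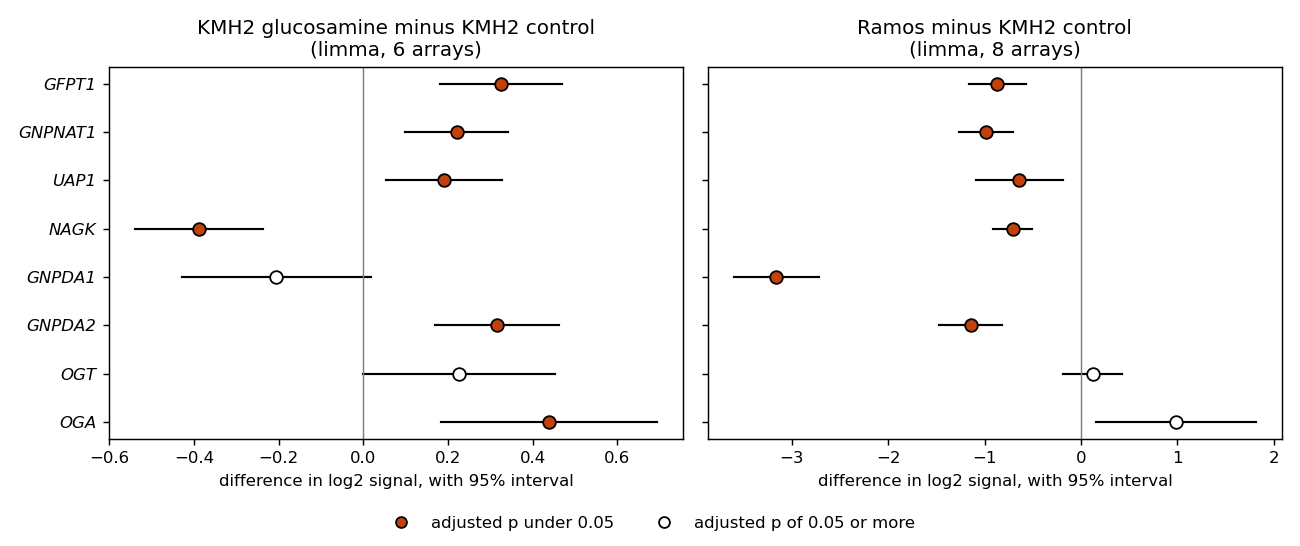
Differences in log2 signal (x axis, a scale of its own for each panel) of the 8 measured genes, KMH2 glucosamine minus KMH2 control on the left and Ramos minus KMH2 control on the right, with 95% confidence intervals as lines and filled points for adjusted p under 0.05. After glucosamine the differences lie between -0.39 and 0.44, and in Ramos they reach -3.16 (GNPDA1).

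Enzymes of neighbouring amino sugar steps passed about as often as other genes after glucosamine, in 22.2% of cases against 26.1% of all genes. Of 9 measured (11 listed) 2 rose, 0 fell and 7 did not pass by limma (2 and 0 also at an unadjusted p under 0.05), with a median of 0.02 beside 0.01 over all genes. They were the genes of sialic acid synthesis NANS (9.26, 8.99 and 9.11 in glucosamine, 8.60, 8.52 and 8.64 in control, higher by 0.54) and GNE (0.37), which starts from UDP-GlcNAc. In Ramos 5 of these 9 were higher, 1 was lower and 3 did not pass (66.7% called, against 44.2% of all genes), with NANS at 0.67, UAP1L1, a relative of UAP1, at 0.74, and HEXA, a subunit of lysosomal hexosaminidase, at -0.41.

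Several genes that supply the precursors fell. Of 11 measured (13 listed) 2 rose, 6 fell and 3 did not pass after glucosamine, with a median of -0.22, where 11.9% of all probe sets rose and 13.9% fell. SLC2A1, the glucose transporter GLUT1, had 8.65, 8.37 and 8.41 in glucosamine and 9.77, 9.89 and 9.75 in control, a fall of 1.33 (-1.33 ± 0.08, SE, adjusted p = 5.26e-05). HK2, the hexokinase that phosphorylates glucose and glucosamine, was at -1.01 and UMPS, of uridine nucleotide synthesis, at -0.48. The amino acid transporter gene SLC1A5, which brings in glutamine, rose by 0.72, or 0.46 as the mean of its 2 probe sets, and SLC2A3, the glucose transporter GLUT3, rose by 0.53. In Ramos 5 were higher, 3 lower and 3 did not pass, where 22.7% of all probe sets were higher and 21.2% lower. SLC2A1 was higher there by 1.12 and SLC1A5 by 0.90, while GLUL, glutamine synthetase, was at -2.41 and PFKP, a phosphofructokinase, at -1.33. GLUL has 2 probe sets, and its difference ran from -2.66 to -1.86 across 18 alternatives. Against all 6 KMH2 arrays the Ramos difference was 1.78 for SLC2A1, 0.54 for SLC1A5 and 0.40 for NANS.

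Of 11 measured transporters and transferases that use UDP-GlcNAc (12 listed), 1 rose, 2 fell and 8 did not pass after glucosamine. That is 27.3% called, close to the 26.1% of all genes. With a replicate block 2 rose and 2 fell, and those that fell were not all the same genes. ALG14, of the second sugar step of the N-glycan precursor, rose by 0.38. MGAT2, a branching enzyme, was at -0.40 (adjusted p = 0.0197), and no longer passed when control replicate 1 (0.0672), control replicate 2 (0.0777) or glucosamine replicate 3 (0.0631) was left out (0.00478 to 0.0787 over its alternatives). EOGT, which sets O-GlcNAc on secreted proteins, was at -0.18 (adjusted p = 0.0446). That call was lost with a replicate block (0.0550) and in 12 of 16 alternatives in all, among them every fit that left out 1 array (0.0669 to 0.131), over a range of 0.0227 to 0.721. In Ramos 4 were higher, 3 lower and 4 did not pass (63.6% called, against 44.2% of all genes). The branching enzyme gene MGAT5 was at 1.49 and the transporter gene SLC35D2 at 1.22, whereas the transporter gene SLC35B4 was at -0.91 and EOGT at -2.20. SLC35D2 was dim, with means of 5.25 in Ramos and 4.03 in KMH2 control. EOGT had 5.24 and 6.42 on the Ramos arrays, and its difference ran from -2.80 to -1.61 across 18 alternatives.

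Of 12 measured partners of OGT in chromatin and transport complexes (13 listed), 2 rose, 2 fell and 8 did not pass after glucosamine (33.3% called, against 26.1% of all genes). With a replicate block 3 rose and 2 fell. Genes of the TET family, which oxidise methylated cytosine, went both ways, with TET1 at 0.41 and TET3 at 0.25 but TET2 at -0.25. TET1 was dim (means of 4.84 in glucosamine and 4.43 in control), and signals that low include background of unknown size. SIN3A, a scaffold of repressor complexes, was at -0.32. The TET3 call was lost without glucosamine replicate 3 (adjusted p = 0.0546, range 0.00174 to 0.0644). In Ramos 4 were higher and 4 lower (66.7% called, against 44.2% of all genes), with the transcription factor gene FOXK1 at 0.79 and the mitochondrial adaptor gene TRAK1 at 0.66, and with TET3 at -1.04 and SIN3A at -0.92.

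Regulators of the unfolded protein and integrated stress responses, pathways with GFPT1 among their described targets, rose in most cases. Of 7 measured 5 rose, 0 fell and 2 did not pass after glucosamine by limma (7 and 0 at an unadjusted p under 0.05), with a median of 0.60, where 11.9% of all probe sets rose. XBP1 had 9.99, 9.68 and 9.79 in glucosamine and 8.78, 8.70 and 8.83 in control, an increase of 1.05 ± 0.08 (SE, adjusted p = 0.000125). EIF2AK3, the gene of the stress kinase PERK, rose by 0.60, and ATF4, the effector of that kinase, by 0.82, or 0.46 as the mean of its 2 probe sets. DDIT3, the gene of the stress factor CHOP, named after its value was seen, rose by 1.82. In Ramos 6 of the 7 were higher and 1 lower, where 22.7% of all probe sets were higher and 21.2% lower, with XBP1 at 1.22, EIF2AK3 at 0.72 and ATF6, another sensor of the response, at -0.62. Against all 6 KMH2 arrays XBP1 was at 0.70 and EIF2AK3 at 0.42. GFPT1 was higher than KMH2 control after glucosamine and lower in Ramos, while XBP1 and EIF2AK3 were higher than KMH2 control in both. ATF6, the 1 regulator lower in Ramos, was at 0.13 after glucosamine, which did not pass (adjusted p = 0.0939). The part of these regulators in the level of GFPT1 was not tested.

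**Figure D5:**
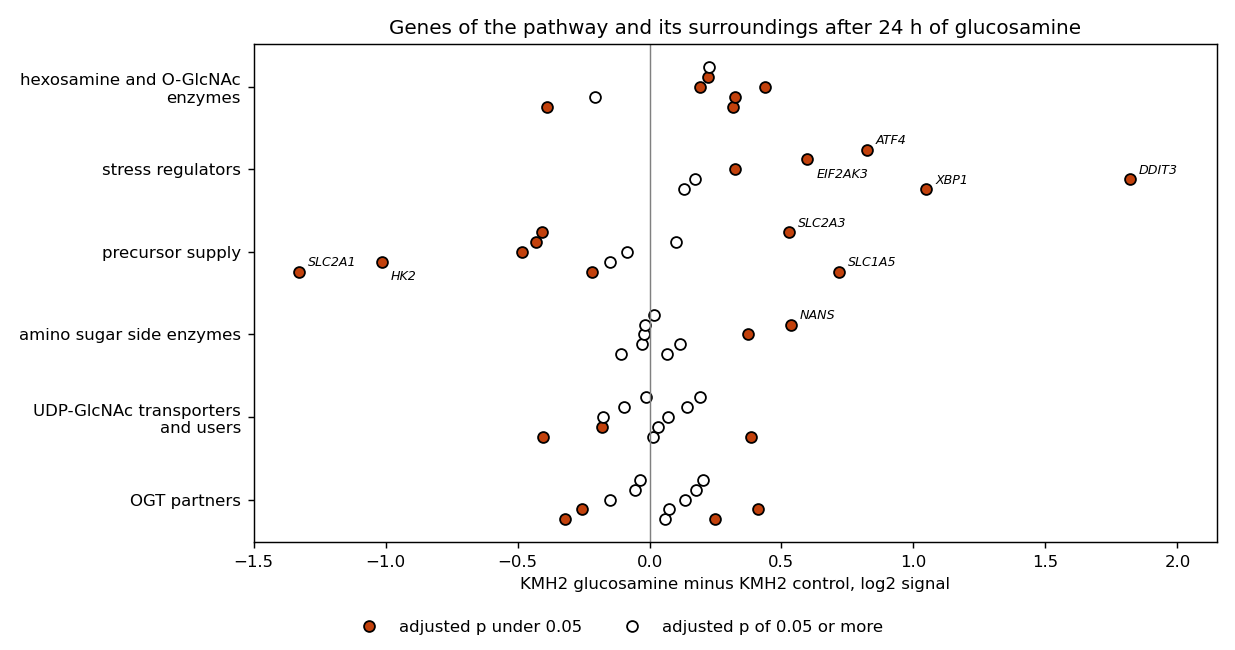
Differences in log2 signal (x axis), KMH2 glucosamine minus KMH2 control, of the set and of each list around it, where each point is a gene and filled points passed the test (adjusted p under 0.05). The points run from -1.33 (SLC2A1) to 1.82 (DDIT3), and those of the set lie between -0.39 and 0.44.

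Across the 8 arrays, likeness was measured as the root mean squared difference between profiles after each gene's own mean was removed, so smaller is more alike. Nearest to GFPT1 were TMEM25 (0.027), STARD10 (0.049) and ETHE1 (0.068), where the median over all genes was 0.525. Nearest to OGT were TRIP11 (0.052), TRMT10A (0.057) and LINC02210 (0.061), with a median of 0.243. Nearest to OGA were EID3 (0.057), TSGA10 (0.071) and STARD4 (0.155), with a median of 0.558. Centring the arrays kept all 3 neighbours of each gene, and quantile normalization kept 2 of 3 for each. Within the set GNPDA2 and GNPNAT1 were the closest pair (0.125), and GNPDA1 and OGA were the farthest apart (1.77). All arrays enter each profile, so the measure holds the differences between the cell lines as well as those after glucosamine.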

How the data were processed

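Per the labels' protocols, biotin-labelled cDNA from total RNA of each sample was hybridised to an Affymetrix HuGene-1_1-st-v1 array. The authors deposited log2 values per probe set, a unit read from the values (1.935 to 13.213). How they were summarized and normalized is not given in the sources used here. Detection calls and scanner files were not used here. The number of arrays limits the precision.

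The platform annotation named the probe sets, and of 33297 deposited probe sets 19181 had exactly 1 symbol and were tested (2055 had several and 12061 were unlisted). Entrez identifiers of 19143 matched the RefSeq gene table, with 0 symbols changed. Each gene was represented by the probe set with the highest mean over the 8 arrays, and each of the 8 measured genes of the set had 1. GFPT2 and PGM3 had no row in that annotation. Limma 3.58.1 in R 4.3.3 (lmFit, eBayes) used the 6 KMH2 arrays for glucosamine and all 8 arrays in 3 groups for Ramos, and was tested on simulated data.

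The set and the lists were chosen with earlier results of these data known. The genes named were the set, from each list up to 3 (glucosamine) or 2 (Ramos) genes per direction with the smallest adjusted p past the threshold, and the 3 genes most like GFPT1, OGT and OGA. Same-numbered KMH2 arrays deviated together from their group means (correlations of 0.457, 0.234 and 0.231 over the probe sets tested). Different numbers gave -0.369 to 0.252, of which the pairings of replicates 2 and 3 (0.252 and 0.182) lay close to the values of their own pairs. The tests as reported did not pair the arrays, since the labels do not say what the numbers stand for. The deviations within a group of 3 arrays sum to 0, so these correlations are not independent of each other and cannot settle the pairing. The fit with a replicate block is given where it changes the call of a named gene or a list count after glucosamine. Alternatives were other scalings (quantile, centring), filters, prior variances, array weights and probe-set means, a replicate block, other array sets and leaving out arrays.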

Additional observations from a re-analysis of the deposited data

How the results depend on the processing

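After glucosamine, 6 genes of the set passed the test as reported. With a replicate block 7 passed (6 higher, OGT joining, and 1 lower), and the block changed no other call in the set. The count was 1 (NAGK) in a fit of all 8 arrays with a common spread, which called 2177 probe sets in all, against 4956 as reported. It ran from 3 to 6 when 1 KMH2 array was left out and from 4 to 7 in the other settings. GFPT1 and GNPDA2 lost their calls only in that fit (adjusted p = 0.119 and 0.155). UAP1 also lost its call with arrays centred on their medians (0.0931), with all probe sets of the table (0.0807) and without both replicate 1 arrays (0.0706), and OGA with all probe sets (0.0535). In the lists around the set, counts after glucosamine ran from 1 to 5 for users of UDP-GlcNAc (3 as reported), 2 to 7 for OGT partners (4), 5 to 9 for precursor supply (8), 1 to 2 for amino sugar enzymes (2) and 4 to 6 for stress regulators (5). GNE, HK2, SLC2A3 and TET2 lost their calls only in that fit.

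For Ramos the count of 6 ran from 5 to 7 in 18 alternatives, and when 1 array was left out from 5 to 7. With a replicate block, where Ramos and KMH2 share only a number, 7 passed (OGA joining). OGA also joined, for a count of 7, with array weights (adjusted p = 0.0323) and without dim probe sets (0.0416). The 1 difference that turned its sign was OGT without Ramos replicate 2 (-0.038, adjusted p = 0.853), which was 0.28 without Ramos replicate 1. HEXA lost its call with array weights (0.0523). Fits on single genes of the set and the lists kept their side of the threshold in 349 cases, lost a call in 46 and gained one in 4 for glucosamine, and in 456, 5 and 4 for Ramos. The causes of these changes were not tested. The alternatives for list genes, list counts and likeness were chosen after seeing the data. The filter on dim probe sets left out TET1 after glucosamine, and UAP1L1 and SLC35D2 in Ramos, so no value is given there.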
